A study of Mus musculus with 4 samples.

Results

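The 8 genes described here encode the core of death receptor signalling and necroptosis: the kinases Ripk1 and Ripk3, the pore-forming pseudokinase Mlkl, the protease Casp8, the adaptors Fadd and Tradd, the Casp8 regulator Cflar and the nucleic acid sensor Zbp1. They were taken by name, or by the current symbol of the listed transcript, among the non-control probes of 4 mouse microarrays. The 8 genes had 16 of the 41174 probes, and 14 of these 16 probes were well above background (a flag of the scanner software that sets a spot's signal against its local background) on at least 2 of the 4 arrays. All 8 genes had such a probe and so entered the 12437 genes tested, out of 27734 names on the array.

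The arrays measured total RNA of cells freshly isolated from the small bowel, which the design text calls enterocytes. There were 2 wild-type (WT) samples and 2 samples of IKKb(EE)IEC littermates, 1 sample to an array. In IKKb(EE)IEC mice the intestinal epithelial cells (IEC) hold an always-active mutant of IKKb, a kinase that switches on the transcription factor NF-kB. The comparison therefore shows which of these genes differ between epithelial preparations of the 2 genotypes. NF-kB activity was not measured by these arrays, and some markers of Paneth cells and macrophages differed as well, as given below. The design text calls the samples biological replicates, and no treatment is listed for either genotype. The promoter that drives the active kinase, the strain, sex and age of the mice, and the number of mice behind a sample are not stated in the sources used here.

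As background, binding of TNF to its receptor recruits the adaptor Tradd and the kinase Ripk1 into a membrane complex that activates NF-kB and keeps the cell alive. If Ripk1 leaves this complex it can join Fadd and Casp8, and active Casp8 starts apoptosis and cleaves Ripk1 and Ripk3, a step that Cflar tunes by pairing with Casp8. Where Casp8 is blocked or absent, Ripk3 phosphorylates Mlkl, which permeabilizes the plasma membrane, and Zbp1 can engage Ripk3 without a death receptor. In mice, loss of Casp8 or Fadd from the intestinal epithelium is known to cause Ripk3-dependent death of epithelial cells and Paneth cells.

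Ripk3, Mlkl and Zbp1 rose 2.27-fold to 3.16-fold in IKKb(EE)IEC samples. Ripk1, Casp8, Fadd, Tradd and Cflar did not pass the test. The 3 of 8 called higher stand beside 8.02% of all genes tested (997 of 12437), and the 0 of 8 called lower stand beside 7.20% (896 genes). None of the 8 was lower at an unadjusted p below 0.05 either, and 4 were higher. Of all 12437 genes tested, 2688 were lower and 2056 higher at that cut. The median log2 fold change of the 8 was 0.35, against -0.12 for all genes tested. The arrays of the genotypes did not overlap for 7 of the 8 genes (5 higher, 2 lower), and this held for 69.1% of all genes tested (28.3% higher, 40.8% lower).

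**Figure D1:**
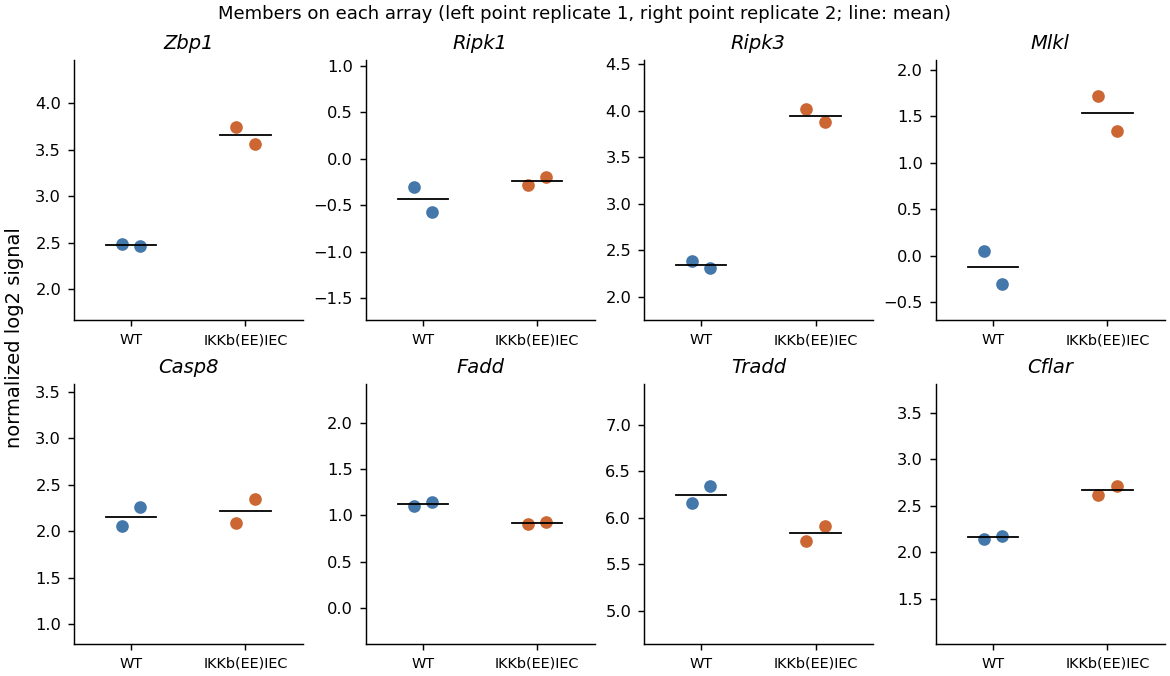
Normalized log2 signal (vertical axes, each spanning the same range but placed around the gene; 0 is the array's 75th percentile) of the 8 genes on each of the 4 arrays, 2 per genotype, with the line at the mean of the 2. Zbp1, Ripk3 and Mlkl show both IKKb(EE)IEC points well above both WT points, while the points of Casp8 interleave.

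The promoters of Ripk3 and Mlkl are shown because both genes rose by a similar factor and act one after the other. The 250 bases before the annotated start, from RefSeq on GRCm38.p6, were read for the 6 of 8 genes with an entry (Ripk1, Ripk3, Mlkl, Casp8, Fadd and Cflar). Both runs below are given 5′ to 3′ on the gene's own strand, which is the minus strand for both, and capitals mark a GC box.
Ripk3, chr14:55788858-55789107: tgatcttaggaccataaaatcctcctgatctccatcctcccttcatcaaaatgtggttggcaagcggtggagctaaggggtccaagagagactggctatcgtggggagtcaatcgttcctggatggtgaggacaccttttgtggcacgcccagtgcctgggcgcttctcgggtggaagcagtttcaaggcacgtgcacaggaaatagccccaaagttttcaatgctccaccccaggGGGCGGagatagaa
Mlkl, chr8:111338206-111338455: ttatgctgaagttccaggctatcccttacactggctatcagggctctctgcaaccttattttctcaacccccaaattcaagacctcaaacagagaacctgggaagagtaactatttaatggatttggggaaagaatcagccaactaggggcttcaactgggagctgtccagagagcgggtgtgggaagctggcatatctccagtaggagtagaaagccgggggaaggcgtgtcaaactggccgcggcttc
Both strands were searched for a kB site (GGG, any 5 bases, CC, a loose pattern for NF-kB sites) and an ISRE core (GAAA, any 2 bases, GAAA, of interferon-induced genes). The other patterns were a GAS element (TTCNNNGAA, a STAT site) and a GC box (GGGCGG, an Sp1 site, whose letters can overlap a kB match). In the Ripk3 window the GC box at -14 to -9 was the single match, and the Mlkl window held none of the 4 patterns. Among all 32851 windows of this length, 45.8% held the kB pattern, 2.98% the ISRE core, 7.02% the GAS element and 32.7% the GC box. A window without a match says only that these letters are not in it.

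Among the genes that did not pass, the second annotated start of Ripk1 had the richest window. It held a kB match (GGGCGCCGCC, at -140 to -131), the GAS match TTCCCGGAA at -108 to -100 and again at -11 to -3, and GC boxes. The Fadd window held 2 GC boxes, and the windows of Casp8 and Cflar held none of the patterns. A match in these windows is a description of letters, not a binding site.

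The signals below are log2 values of the processed spot signal after each array's own 75th percentile was subtracted, so 0 is the 75th percentile spot of that array. They can be compared for 1 probe between arrays, but not between probes. Each representing probe of the 8 genes was well above background on all 4 arrays. Differences (IKKb(EE)IEC minus WT, 2 arrays against 2) carry the standard error (SE) that limma moderates, and p-values are adjusted over all 12437 genes. Probe positions are those of the files (mm8), and the exon under a probe is not stated in the sources used here.

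Zbp1, which senses Z-form nucleic acid and binds Ripk3, gave 2.48 and 2.46 with WT RNA, against 3.75 and 3.56 with IKKb(EE)IEC RNA (probe at chr2:172849549-172849608). Both arrays of the active-kinase genotype lay above both WT arrays, and the 2 WT arrays nearly coincided. The difference was 1.18 ± 0.17 (SE), a 2.27-fold rise with a 95% interval of 0.76 to 1.61 on the log2 scale and an adjusted p of 0.0161.

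Ripk3, the kinase that phosphorylates Mlkl, stood at 2.38 and 2.30 in WT, against 4.01 and 3.87 in IKKb(EE)IEC samples (probe at chr14:54739183-54739242). The gap between the genotypes was many times the gap within either of them. It rose by 1.60 ± 0.17 (SE), or 3.03-fold, with a 95% interval of 1.18 to 2.02 and an adjusted p of 0.00634, the lowest of the 8 genes. Its promoter, printed above, holds 1 GC box and no kB match in the window read.

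Mlkl, the effector that permeabilizes the membrane, read 0.06 and -0.30 with WT RNA, against 1.72 and 1.35 with IKKb(EE)IEC RNA (probe at chr8:114198670-114198729). Again the genotypes did not overlap, although the arrays within a genotype lay further apart than for Ripk3 or Zbp1. The rise was 1.66 ± 0.23 (SE), 3.16-fold, with a 95% interval of 1.10 to 2.22 and an adjusted p of 0.0135. In the authors' deposited value table, fitted the same way, the rise of Mlkl was smaller, 0.95 or 1.94-fold (adjusted p 0.0180).

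The calls for these 3 genes rest on both IKKb(EE)IEC arrays. Without the first of them the log2 differences were 1.53 for Ripk3, 1.47 for Mlkl and 1.09 for Zbp1, with adjusted p of 0.0869, 0.114 and 0.174. Leaving out the second instead gave 1.67, 1.85 and 1.27, with adjusted p of 0.0629, 0.0564 and 0.128, so the sizes changed little and none of the 3 passed. In these fits the spread comes from the 2 WT arrays alone, and the lone sample is assumed to vary like them. The median absolute difference between the 2 arrays of a genotype was 0.29 in WT and 0.15 in IKKb(EE)IEC samples over the genes tested. Under a normexp background correction limma called 0 of all genes, these 3 included, while with spots below their local background left out of that correction's fit (chosen after seeing the data) Ripk3, Mlkl and Zbp1 passed with adjusted p of 0.00132, 0.00964 and 0.00307.

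Ripk1, the kinase shared by the survival complex and the death complexes, gave -0.30 and -0.57 in WT, against -0.28 and -0.20 in IKKb(EE)IEC samples (probe at chr13:34040748-34040807). The genotypes were separated by only 0.02, less than the distance between the 2 WT arrays. The difference of 0.19 ± 0.18 (SE) had a 95% interval of -0.26 to 0.65 and did not pass (adjusted p 0.461). A second Ripk1 probe differed by 0.02 with overlapping arrays, and another was not well above background on any array.

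Casp8, the initiator protease, had WT values of 2.05 and 2.26 and IKKb(EE)IEC values of 2.09 and 2.34 (probe at chr1:58789303-58789362). It was the 1 gene of the 8 whose genotypes overlapped. Its difference of 0.06 ± 0.19 (SE; 95% interval -0.41 to 0.53; adjusted p 0.828) turned to -0.04 without the first WT array and to -0.06 without the second IKKb(EE)IEC array. The interval excludes a rise as large as that of Ripk3 or Mlkl on this probe.

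Fadd, the adaptor that joins death receptors to Casp8, read 1.10 and 1.14 in WT, against 0.90 and 0.93 in IKKb(EE)IEC samples (probe at chr7:144387713-144387752). Both values of the active-kinase genotype were lower, by little. The difference of -0.20 ± 0.16 (SE; 95% interval -0.61 to 0.20; adjusted p 0.387) did not pass, and it came to 0.00057 under another background correction that was chosen after seeing the data. A dimmer second Fadd probe also lay lower in both IKKb(EE)IEC samples (-0.34 and -1.21 in WT, -1.36 and -1.36 in IKKb(EE)IEC), with a difference of -0.58 (adjusted p 0.223 in a fit over all probes). In that fit 3 of the 14 probes passed, those of Ripk3, Mlkl and Zbp1, all higher, where 8.19% of the 16406 probes were called higher and 5.76% lower.

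Tradd, the adaptor of the TNF receptor, gave 6.15 and 6.35 with WT RNA, against 5.76 and 5.92 with IKKb(EE)IEC RNA (probe at chr8:108147704-108147760). The groups did not overlap, with the active-kinase genotype lower. The difference was -0.41 ± 0.18 (SE; 95% interval -0.86 to 0.03) with an adjusted p of 0.150. Over the other settings it ran from -0.51, without the first WT array, to -0.13 with the background correction chosen after seeing the data (adjusted p 0.564 there). It was -0.18 with quantile normalization (adjusted p 0.458) and -0.22 in the authors' deposited value table (adjusted p 0.171). Before the arrays were shifted, the genotypes overlapped. The processed signals were 4293 and 5376 in WT, against 5112 and 6513 in IKKb(EE)IEC samples.

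Cflar, which encodes the c-FLIP proteins that pair with Casp8, was nearest to the threshold among the genes that did not pass. Its representing probe, listed for transcript variant 1, read 2.15 and 2.18 in WT, against 2.62 and 2.71 in IKKb(EE)IEC samples (chr1:58703294-58703353). The arrays within a genotype lay close together, and the genotypes did not overlap, which held for 69.1% of all genes tested. The difference of 0.51 ± 0.16 (SE), or 1.42-fold, had a 95% interval of 0.10 to 0.91, an unadjusted p of 0.0240 and an adjusted p of 0.0878. Cflar passed in the authors' deposited value table (0.46, adjusted p 0.0318) and with the background correction chosen after seeing the data (0.67, adjusted p 0.0175). It did not pass with each array shifted by its median (0.56, adjusted p 0.247) or with probes averaged (adjusted p 0.198). Nor did it pass with replicate number as a block (adjusted p 0.108). With 1 array left out its difference ran from 0.46 to 0.55.

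The probes of Cflar did not move alike. A second probe listed for variant 1 read -1.72 and -3.00 in WT, against -1.03 and -0.99 in IKKb(EE)IEC samples. It was not well above background with either WT RNA, so the rise is given as at least 1.26-fold, which sets the IKKb(EE)IEC mean against the higher of the WT value and the lowest signal well above background on that array. Both probes listed for variant 2 differed little, by -0.10 and 0.11, and a probe listed for a cDNA clone differed by -0.27. One further Cflar probe was not well above background on any array. With the passing probes of a gene averaged, Cflar rose by 0.32, which is smaller than the value of its brightest probe. No test between the probes was run.

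**Figure D2:**
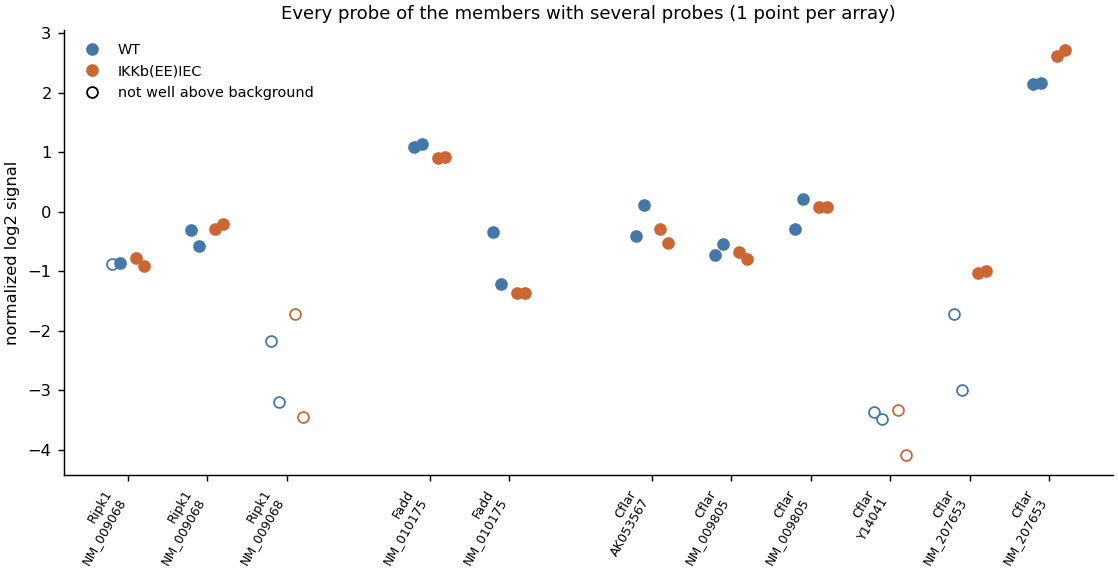
Normalized log2 signal (vertical axis; 0 is the array's 75th percentile) of every probe of Ripk1, Fadd and Cflar, with the transcript listed for each probe under the axis, 1 point per array, and open points where the probe was not well above background. Among the Cflar probes, both listed for variant 1 lie higher in IKKb(EE)IEC samples, and those listed for variant 2 do not separate by genotype.

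**Figure D3:**
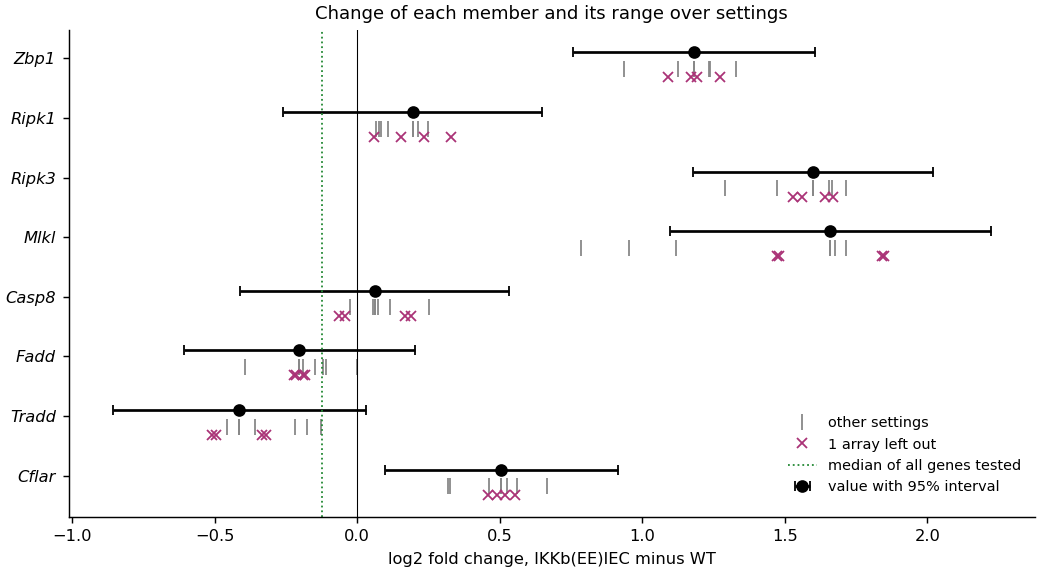
Log2 fold change of each of the 8 genes (IKKb(EE)IEC minus WT, horizontal axis) with its 95% interval, the same value under other processing settings (grey ticks) and with 1 array left out (crosses); the dotted line is the median of all genes tested. Zbp1, Ripk3 and Mlkl stay above 0.78 in every setting shown, Cflar stays between 0.32 and 0.67, and the values of Casp8 and Fadd reach both sides of 0.

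All 4 arrays lay on 1 slide and were scanned together, with WT at positions 1 and 2 and IKKb(EE)IEC at positions 3 and 4, so position and genotype cannot be told apart. Before the arrays were shifted, the 75th percentile of their spots was 60.3 and 66.1 with WT RNA, against 94.6 and 107.8 with IKKb(EE)IEC RNA. Ikbkb, the gene of the activated kinase, read -0.72 and -0.27 in WT, against 0.33 and 0.34 in IKKb(EE)IEC samples (difference 0.83 ± 0.21 (SE), adjusted p 0.0550), and whether its probe reads the transgene is not stated in the sources used here. The second WT array had 5 of 9 liver and pancreas markers well above background, against 0 or 1 on the other arrays. Without that array Ripk3 rose by 1.56, Mlkl by 1.48 and Zbp1 by 1.17 on the log2 scale. In that fit the spread comes from the IKKb(EE)IEC pair alone and 1914 genes were called higher, so its p-values are not given. Of the genes called in either direction, 52.7% were higher in IKKb(EE)IEC samples. This share was 63.2% with each array shifted by its median and 72.1% with the added background correction. It fell to 40.0% with only probes well above background on all 4 arrays (771 higher, 1157 lower), so the balance depends on the setting.

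The labelled cell type was checked with markers. Over all 12437 genes tested, 8.02% were called higher and 7.20% lower. At an unadjusted p below 0.05, 2056 were higher and 2688 lower. All 12 epithelial markers were well above background on each array, and 0 of the 12 were called by limma (3 higher and 1 lower at an unadjusted p below 0.05). Bulk RNA cannot tell fewer cells of a type from less RNA per cell. Of 14 macrophage and dendritic cell markers, 11 were tested, 6 were higher (among them Adgre1, C1qc and Fcgr1) and Lyz2, which Paneth cells also express, was lower. Of these 11, 5 were not well above background on the WT arrays and entered through the IKKb(EE)IEC arrays, and of the 4 well above background on all arrays Lyz2 was lower and Csf1r, C1qb and Mertk did not pass. Their summed signal without Lyz2, in multiples of the array's 75th percentile, was 9.55 and 11.3 in WT, against 32.1 and 25.8 in IKKb(EE)IEC samples, with Lyz2 it was 932 and 2442 against 325 and 322, and Mrc1 and Cx3cr1 were not well above background on any array. Of 8 Paneth cell markers tested, 7 were lower, and their summed signal was 25030 and 25950 in WT, against 3723 and 5018 in IKKb(EE)IEC samples. These markers moved with the rise of Ripk3, Mlkl and Zbp1, and their part in the result was not tested. None of 9 T and NK cell markers was called by limma (0 higher and 3 lower at an unadjusted p below 0.05).

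Upstream of the 8 genes, 3 of 8 measured death receptors and ligands rose and 0 fell (12 listed, median log2 fold change 0.61). Over all genes tested, 8.02% were called higher and 7.20% lower, with a median of -0.12. Of the 3, Tnf entered through the IKKb(EE)IEC arrays alone. With only probes well above background on all 4 arrays, 2 of 6 rose (771 genes called higher in all). Without a filter on dim probes, 1 of 12 rose (501 genes called higher in all). Tnf, the ligand itself, was not well above background with either WT RNA (-2.86 and -2.93) and read -0.38 and -0.19 in IKKb(EE)IEC samples (adjusted p 0.00218). By the rule given for Cflar, Tnf was at least 2.08-fold higher, a bound that holds for this processing only. Tnf also passed in the authors' deposited value table and with the added background correction, where its log2 differences were only 0.64 and 0.53, so the size of the rise depends on how background is treated. Tnfrsf10b, the mouse TRAIL receptor, rose by 0.93 ± 0.21 (SE, adjusted p 0.0423) and did not pass in those settings (0.42 and 0.34, adjusted p 0.0506 and 0.0965). Fas rose by 0.74 ± 0.17 (SE, adjusted p 0.0441) on its representing probe, while a second Fas probe, listed for a cDNA clone, differed by -0.12. Fas did not pass with each array shifted by its median (adjusted p 0.0744) or with probes averaged (0.31, adjusted p 0.205). The TNF receptor Tnfrsf1a, through which Tradd and Ripk1 are recruited, differed by 0.47 and did not pass (adjusted p 0.103). With either IKKb(EE)IEC array left out, 1 of the 8 passed.

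The next list holds the proteins that assemble on the TNF receptor and add or trim ubiquitin on Ripk1. Its counts stand beside 8.02% higher and 7.20% lower over all genes tested. Of 20 measured genes (22 listed), 5 rose and 0 fell, with a median of 0.38, and 3 of the 20 passed with either IKKb(EE)IEC array left out. Tnfaip3, the ubiquitin-editing inhibitor A20, read 0.39 and 0.95 in WT, against 3.39 and 3.47 in IKKb(EE)IEC samples, a rise of 2.76 ± 0.24 (SE, adjusted p 0.00385; 1.97 in the authors' deposited value table, adjusted p 0.00200). Its partner Tnip1 rose by 2.15 ± 0.17 (SE, adjusted p 0.00332). Birc3, the ubiquitin ligase cIAP2 that modifies Ripk1, rose by 2.14 ± 0.21 (SE, adjusted p 0.00506) on its representing probe. A dimmer second Birc3 probe differed by 1.00, and with probes averaged Birc3 rose by 1.57 (adjusted p 0.0157). Its close relative Birc2 differed by 0.13 (adjusted p 0.575). Spata2, which links the deubiquitinase Cyld to the complex, and Rnf31, the catalytic subunit of the linear ubiquitin ligase, rose by 1.43 and 0.75, whereas Cyld itself differed by 0.51 (adjusted p 0.106). Tnfaip3, Tnip1 and Birc3 are widely known NF-kB target genes.

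Downstream on the apoptotic side, 2 of 15 measured caspases and execution genes rose and 0 fell (16 listed; median -0.11; 1 lower at an unadjusted p below 0.05), and 0 passed with either IKKb(EE)IEC array left out. These calls stand beside 8.02% higher and 7.20% lower over all genes tested. The mitochondrial protease gene Htra2 rose by 0.92 ± 0.22 (SE), close to the threshold with an adjusted p of 0.0496. Apaf1, the scaffold of the apoptosome, was not well above background with either WT RNA (-0.82 and -1.14, against -0.06 and -0.16 in IKKb(EE)IEC samples) and rose by 0.87 on this probe (adjusted p 0.0410), but another Apaf1 probe that passed the background filter differed by 0.15. The call for Apaf1 ended in the authors' deposited value table (0.27, adjusted p 0.110), with probes averaged (0.51, adjusted p 0.124) and with the added background correction (0.15, adjusted p 0.426). Apaf1 entered the list through the IKKb(EE)IEC arrays alone. With only probes well above background on all 4 arrays, 1 of 14 measured genes rose (771 genes called higher in all). Without a filter on dim probes, 0 of 16 rose (501 genes called higher in all).

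For pyroptosis, the inflammatory death route run by other caspases, 2 of 10 measured genes fell and 0 rose (11 listed, median 0.34). At an unadjusted p below 0.05, 2 were higher. Over all genes tested, 7.20% were called lower and 8.02% higher. Of the 2 that fell, Nlrp3 entered through the WT arrays alone. With only probes well above background on all 4 arrays, 1 of 9 fell (1157 genes called lower in all). Without a filter on dim probes, 1 of 11 fell (342 genes called lower in all). Il18, an epithelial cytokine matured by caspase-1, read 3.61 and 4.31 in WT, against 1.92 and 1.91 in IKKb(EE)IEC samples, a fall by 2.05 on the log2 scale ± 0.27 (SE, adjusted p 0.0122). Nlrp3, an inflammasome sensor, was not well above background in either IKKb(EE)IEC sample and was 2.00-fold lower as measured (-0.81 and -0.90 in WT, against -1.77 and -1.94; adjusted p 0.0245). Its call ended in the authors' deposited value table (-0.22, adjusted p 0.148) and with the added background correction (-0.41, adjusted p 0.0513). Neither gene passed once an IKKb(EE)IEC array, the first or the second, was left out.

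Among 14 measured genes that feed into necroptosis by other routes or restrain it (18 listed), 3 rose and 0 fell, with a median of 0.26. The shares over all genes tested were 8.02% higher and 7.20% lower. Eif2ak2, the double-stranded RNA kinase PKR, rose by 1.71 ± 0.21 (SE, adjusted p 0.0105; 0.91 in the authors' deposited value table, adjusted p 0.0121). Smarca4, a chromatin-remodelling ATPase, rose by 1.70 ± 0.31 (SE, adjusted p 0.0281), and Hsp90aa1, a chaperone of Ripk1, Ripk3 and Mlkl, by 0.72 ± 0.17 (SE, adjusted p 0.0464; 0.0850 with each array shifted by its median). Without a filter on dim probes, 1 of 18 rose, and neither Smarca4 nor Hsp90aa1 passed (adjusted p 0.0602 and 0.0628). With only probes well above background on all 4 arrays, 4 of 14 rose. Adar, the RNA-editing enzyme that restrains Zbp1, read -0.16 and -0.59 in WT, against 0.56 and 0.40 in IKKb(EE)IEC samples and missed the threshold (0.86 ± 0.21 (SE), adjusted p 0.0519; named after its values were seen). With either IKKb(EE)IEC array left out, 0 of the 14 passed.

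Zbp1 and Mlkl are known interferon-induced genes, so the interferon list is given beside them. Its counts again stand beside 8.02% higher and 7.20% lower over all genes tested. Of 17 measured genes (20 listed), 7 rose and 0 fell, with a median of 1.00, and 4 and 5 passed without the first and the second IKKb(EE)IEC array. Isg15, a ubiquitin-like modifier, read 1.92 and 2.10 in WT, against 5.06 and 4.76 in IKKb(EE)IEC samples, a rise of 2.90 ± 0.19 (SE, adjusted p 0.00218). The files place this probe at chr17:45870420-45870479, and whether it reads Isg15 alone is not stated in the sources used here. Ifit3 and Ifit1, related antiviral proteins, rose by 2.58 ± 0.25 and 2.44 ± 0.25 (SE, adjusted p 0.00506 and 0.00585), and in the authors' deposited value table Ifit3 rose by 1.37. Irf7 and Stat2, transcription factors of the interferon response, rose by 1.24 and 1.13. The related Irf1 differed by 0.31 and did not pass (adjusted p 0.241). In this list and in those of receptors, receptor complex and other routes, limma called 0 genes lower at an unadjusted p below 0.05 as well. Of all 12437 genes tested, 2688 were lower at that cut.

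**Figure D4:**
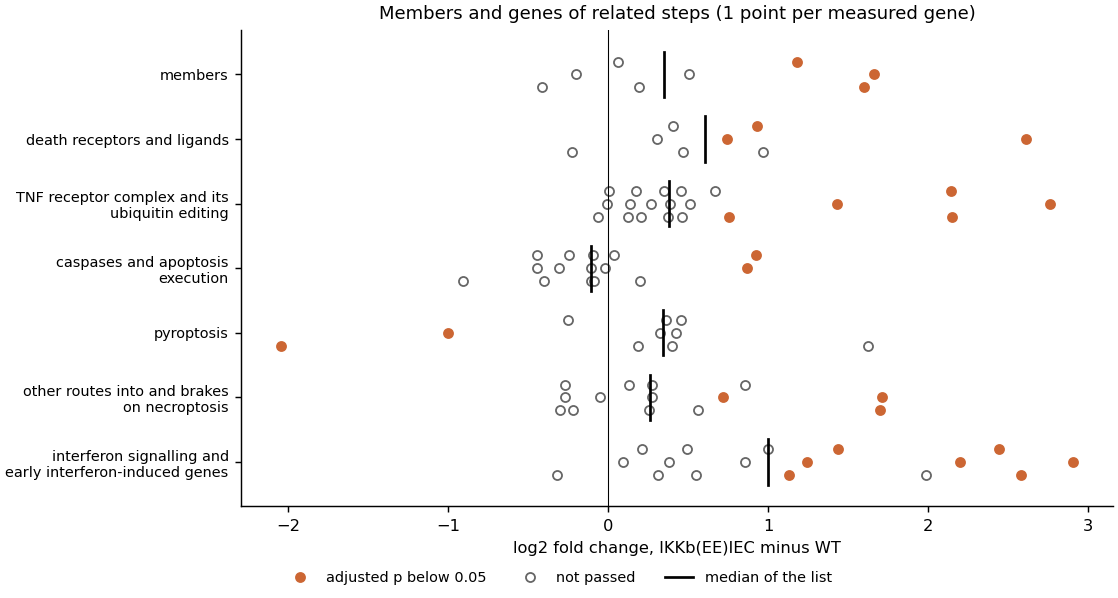
Log2 fold change (IKKb(EE)IEC minus WT, horizontal axis) of the 8 genes (top row, labelled members) and of the measured genes of 6 related lists, 1 point per gene, filled where the adjusted p was below 0.05, with a line at the median of each list. Medians run from -0.11 for caspases and execution genes to 1.00 for the interferon list, and the filled points left of 0 are Il18 and Nlrp3.

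Likeness was measured as the Euclidean distance between the values of 2 genes over the 4 arrays, each gene centred on its own mean, among 10342 named candidates. Nearest to Ripk3 were Atp2b1, a calcium pump (distance 0.0676), Lenep (0.0740) and Nfkbib, the NF-kB inhibitor IkB-beta (0.0744). Nearest to Mlkl were the amino acid transporter gene Slc38a2 (0.106), Trim30a (0.136) and Zfp455 (0.172). Lenep, Zfp455, Eif4e3 and Gmip were not well above background with either WT sample, so their distances rest partly on values at background. Mocs1, a molybdenum cofactor synthesis gene (0.0356), Eif4e3 (0.0873) and Gmip (0.0981) lay closest to Zbp1. These distances describe 4 arrays of which 2 share each genotype, so any gene with a like difference between genotypes lies near.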

How the data were processed

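Cy3-labelled cRNA from 250 ng RNA of each sample was hybridised to Agilent design 014868, per the labels and the file headers. Per the file headers, the deposited spot intensities and flags were written by Feature Extraction 9.5.3.1, and the processed signal is corrected for background, with a substitute for dim spots. The authors' deposited value table holds linear intensities. Its columns have medians of 111.5 to 112.0 and follow each array's spot intensities, and its normalization between arrays is not stated in the sources used here.

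From log2 of the processed signal, the array's 75th percentile was subtracted. Control spots and non-uniform outliers were left out, and spots of a probe were averaged. Probes well above background on at least 2 of 4 arrays entered, 16406 of 41174, and the brightest such probe stood for a gene. Names follow RefSeq (GRCm38.p6) for 24375 probes matched by accession and a further 4647 through their listed name (12152 kept that of the files). Genotypes were compared with limma 3.58.1 in R 4.3.3 (lmFit and eBayes, two-sided, Benjamini-Hochberg over 12437 genes, adjusted p below 0.05). The same fit was also run on simulated data drawn around the levels and spreads of these genes. With 2 arrays against 2 only 3 splits exist, so no permutation test can pass. Arrays give no counts, and their number limits the precision.

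All 8 genes are named. From each of 6 related lists the text names up to 3 passing genes with the largest change, and for each called gene the 3 most alike genes. Genes named beyond this (Tnfrsf1a, Birc2, Spata2, Rnf31, Cyld, Adar, Irf7, Stat2, Irf1, Ikbkb and cell type markers) were chosen after their values were seen. Some genes of the lists are not reported by name here. The members and lists were chosen with earlier results of these data known. The GC box pattern was added after values were seen. Alternatives were other shifts and background corrections, filters, probe rules, the authors' value table, a replicate block, and leaving out each array.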

Additional observations from a re-analysis of the deposited data

How the results depend on the processing

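With only 2 arrays per genotype on 1 slide, the calls depend on each array. With 1 array left out, 165 to 2633 genes were called higher and 82 to 3542 lower (997 and 896 with all arrays), and of the 8 genes 0 to 4 were called higher and 0 to 1 lower. Planned normexp correction called 0 genes higher, 0 lower and 0 of the 8 (limma), because its parameters on 2 arrays followed a few spots far below their local background. Fitted without such spots, a setting chosen after seeing the data, it called 547 genes lower and moved the median of all genes from -0.12 to -0.01; without a filter on dim probes 501 genes were called higher and 342 lower and the median was -0.45. Relative to the median of all genes in each setting, Mlkl, Ripk3 and Zbp1 lay higher throughout. With replicate numbers as a replicate block, 913 genes were called higher and 587 lower, and 3 and 0 of the 8. Under this block Fas (adjusted p 0.0586) and Hsp90aa1 (0.0600) lost their calls. The difference replicate 2 minus replicate 1 in WT correlated with that in IKKb(EE)IEC samples at 0.11 over 12437 genes. The numbers were therefore not taken to pair the samples.

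The log2 difference of Casp8 reversed to -0.026 under normexp and ran from -0.064 to 0.19 with 1 array left out (-0.044 when WT replicate 1 was omitted, -0.064 for IKKb(EE)IEC replicate 2), and that of Fadd to 0.00057 under normexp without the spots below background. Over all settings Ripk3 ranged from 1.29 to 1.72, Zbp1 from 0.93 to 1.33, Mlkl from 0.78 to 1.85 and Cflar from 0.32 to 0.67. Among alternative values of the 8 genes, 102 kept direction and side of the threshold, 9 lost the call, 5 gained one and 4 reversed; among those of the related genes named, 183 kept and 54 lost it. A slide or scan block was not run, since there was 1 slide and 1 scan. Adjusting over all probes was also added after seeing the data.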
